A study of Homo sapiens with 4 samples.

Results

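HIF1α, encoded by HIF1A, is the oxygen-regulated subunit of the hypoxia-inducible factor HIF-1. Together with ARNT it binds DNA at hypoxia response elements, whose core is RCGTG (R stands for A or G). Prolyl hydroxylases mark HIF1α for destruction when oxygen is present, and FG-4592 inhibits these enzymes. Among the best known HIF targets are genes of glycolysis, such as PFKP, and EGLN3, which encodes a prolyl hydroxylase.

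The regions described here are the HIF1α ChIP-seq peaks of replicate 2 that lie outside every annotated exon and have no counterpart in replicate 1. They were chosen by the peak calls themselves: a peak on chromosomes 1 to 22 or X had to share no base with a GENCODE exon in GRCh37 coordinates and to overlap no replicate 1 peak by 1 bp or more. There were 2513 such regions among 16953 replicate 2 peaks, and 18642 peaks were listed for both replicates together. The material was HK2, an immortalised line from human kidney proximal tubule, treated with 50 µM FG-4592 for 6 h, and comprised 2 ChIP-seq and 2 RNA-seq libraries of this treatment. Untreated cells were not part of the material analysed. The peak lists give positions with no score, the sequencing depth behind them is unknown, and the Wilson 95% intervals given here cover counting error only. Each comparison of peak classes rests on 1 library per class and has no replicate.

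The 2 replicates differed greatly in size, with 1689 peaks in replicate 1 against 16953 in replicate 2. For comparison, 601 exon-free peaks were found in replicate 1 only, 13689 exon-touching peaks in replicate 2 only, and 128 exon-free replicate 2 peaks overlapped a replicate 1 peak. The exon-free peaks of replicate 2 only had a median width of 288 bp, against 451 bp for the exon-touching ones and 308 bp for the exon-free peaks of replicate 1 only. The narrowest replicate 2 peak had 227 bp, and 15.3% of the exon-free peaks of replicate 2 only had exactly this width, against 5.99% of all replicate 2 peaks on these chromosomes.

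The RNA-seq libraries gave a mixed picture of the label. Of the proximal tubule markers, GGT1 was at 62.3 and 58.5 FPKM (fragments per kilobase of transcript, scaled to the mapped total) in replicates 1 and 2, and SLC5A2 at 2.59 and 1.70. LRP2, the endocytic receptor megalin, was listed at 0 in both libraries, and CUBN, SLC34A1, AQP1 and ANPEP each stayed below 0.1 FPKM. Of the epithelial markers, the keratins KRT8 and KRT18 had 166 and 162 FPKM and 47.5 and 48 FPKM, and EPCAM had 39 and 45.5 FPKM. CDH1, which encodes E-cadherin, was low, at 0.211 and 0.379 FPKM. Of the mesenchymal markers, the filament gene VIM had 1294 and 802 FPKM, and the collagen gene COL1A1 had 38.7 FPKM in each library. UMOD, SLC12A1, AQP2, NPHS1 and PTPRC, which mark other kidney segments or blood cells, were listed at 0. HIF1A itself had 112 ± 2.57 FPKM (SD, n = 2), EPAS1 34.9 ± 10.6 and ARNT 8 ± 0.284.

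A set of 4 central windows of 201 bp gives examples from the class, each on the plus strand of hg19 with RCGTG on either strand in capitals. They are not a typical sample, since 27.5% of the class held RCGTG in this window. The first has the most cores of any exon-free peak of replicate 2 only. The others lie in introns of PFKP, EGLN3 and TTC34, and these were picked after the values were seen. Those of PFKP and TTC34 had the most cores of the regions in their gene, in PFKP together with another region.
chr12:130877087-130877287, 3′ of RIMBP2: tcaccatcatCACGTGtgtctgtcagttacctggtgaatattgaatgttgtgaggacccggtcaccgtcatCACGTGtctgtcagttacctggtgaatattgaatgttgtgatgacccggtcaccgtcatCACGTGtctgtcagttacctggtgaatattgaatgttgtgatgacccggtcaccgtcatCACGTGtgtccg
chr10:3165319-3165519, PFKP intron: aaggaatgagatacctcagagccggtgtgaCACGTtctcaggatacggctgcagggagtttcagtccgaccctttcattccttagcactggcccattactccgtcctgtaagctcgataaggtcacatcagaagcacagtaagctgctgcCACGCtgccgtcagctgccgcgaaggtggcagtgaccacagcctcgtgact
chr14:34594664-34594864, EGLN3 intron: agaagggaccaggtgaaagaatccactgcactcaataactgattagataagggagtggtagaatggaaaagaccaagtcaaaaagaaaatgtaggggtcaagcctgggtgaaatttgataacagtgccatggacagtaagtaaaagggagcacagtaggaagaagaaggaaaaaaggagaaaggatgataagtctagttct
chr1:2620276-2620476, TTC34 intron: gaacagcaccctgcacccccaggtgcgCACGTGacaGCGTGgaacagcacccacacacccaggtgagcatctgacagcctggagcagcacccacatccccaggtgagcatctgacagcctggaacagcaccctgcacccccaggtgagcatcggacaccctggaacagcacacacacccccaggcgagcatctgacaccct

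The chromosome 12 window counts 8 cores, which come from 4 copies of CACGTG, a palindrome that holds a core on each strand, set in a repeated unit. The PFKP window holds 2 cores. The TTC34 window also repeats a short unit and holds 3 cores, while the EGLN3 window holds none.

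Few of the exon-free peaks of replicate 2 only carried a hypoxia response element core. RCGTG lay within 100 bp of the centre in 690 of 2513 of them (27.5%, interval 25.7 to 29.2%). The background was 16.1% of 300-bp tiles of the genome outside exons, read over their central 201 bp, and 22.6% of 4082 windows of the same width beside the peaks. The difference from these flanks was modest (odds ratio 1.3, two-sided Fisher's exact test, p = 9.63e-06, adjusted p = 1.28e-05 over 8 tests), and no excess was shown within any of 4 ranges of GC content, given below. Among the 601 exon-free peaks of replicate 1 only, 88.7% carried the core (odds ratio 0.0483 for replicate 2 against replicate 1, Fisher's exact test, p = 2.4e-174). The exon-touching peaks of replicate 2 only carried it in 25.8%, a share not shown to differ from that of the exon-free ones (odds ratio 1.09, Fisher's exact test, p = 0.0792). When replicate 1 was not used in the rule, the shares were 28.3% and 26.4% (Fisher's exact test, p = 0.0465). Over whole peaks the order turned, with 37.6% against 50.5%, but the exon-touching peaks were also wider. Of all 8 comparisons, the one with exon-touching peaks over central windows was the exception to an adjusted p below 0.05. Neighbouring regions are not independent and can share sequence, so these p-values treat clustered regions as if they were separate. With 1 region kept per group of neighbours within 10 kb, 1883 in all, the share with RCGTG was 26.9% against 21.5% of their flanks (Fisher's exact test, p = 1.08e-05).

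**Figure D1:**
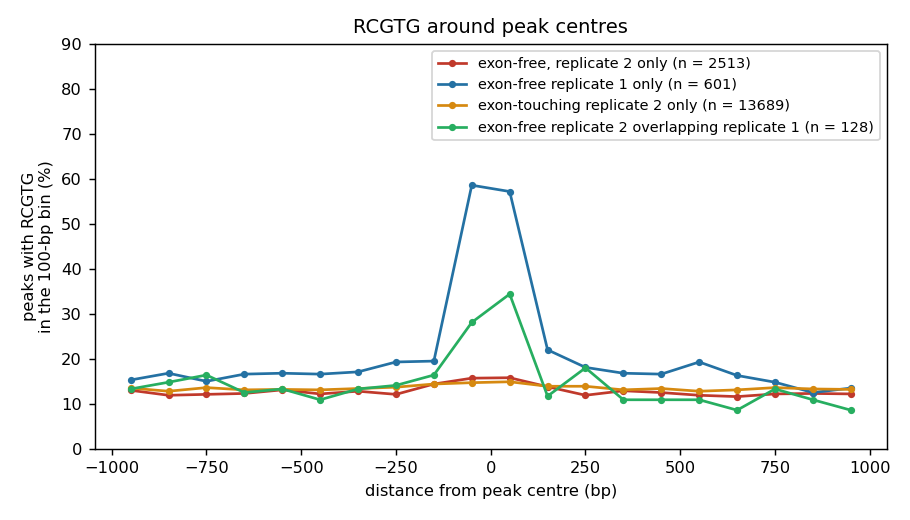
Share of peaks with RCGTG (%) in each 100-bp bin against distance from the peak centre (bp), for 4 classes of peaks. Exon-free peaks of replicate 1 only rise to 58.6% beside the centre, and exon-free peaks of replicate 2 only reach 15.8%.

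The plot of RCGTG by distance shows how little the core gathered at these centres. In the exon-free peaks of replicate 2 only, the share was 15.7% and 15.8% in the bins on either side of the centre and between 11.6% and 13.1% in the bins more than 200 bp away. In the exon-free peaks of replicate 1 only, the bins beside the centre had 58.6% and 57.2%, and those more than 200 bp away between 12.5% and 19.3%. Replicate 2 peaks that overlapped replicate 1 outside exons lay in between, with 28.1% and 34.4% beside the centre.

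The peaks were richer in GC than their flanks. The median GC content of the central 201 bp was 51.7% in the exon-free peaks of replicate 2 only and 43.8% in their flanks. Below 40% GC, 9.18% of the peaks and 9.96% of the flanks held RCGTG. Between 40 and 50% GC the shares were 21.3% and 22.3%, with overlapping intervals in both ranges. Between 50 and 60% GC the peaks lay below the flanks, at 30.0% (interval 27.3 to 32.9%) against 37.6% (34.5 to 40.9%; Fisher's exact test, unadjusted p = 0.000456). From 60% GC upward, 44.1% of the peaks and 41.2% of the flanks held it (Fisher's exact test, unadjusted p = 0.447). How far GC content accounts for the excess over all flanks was not tested. Exon-free peaks of replicate 1 only stood above both in each of these 4 ranges, at 51.6%, 86.2%, 90.8% and 92.6%. These shares by GC content are a description chosen after the data were seen.

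**Figure D2:**
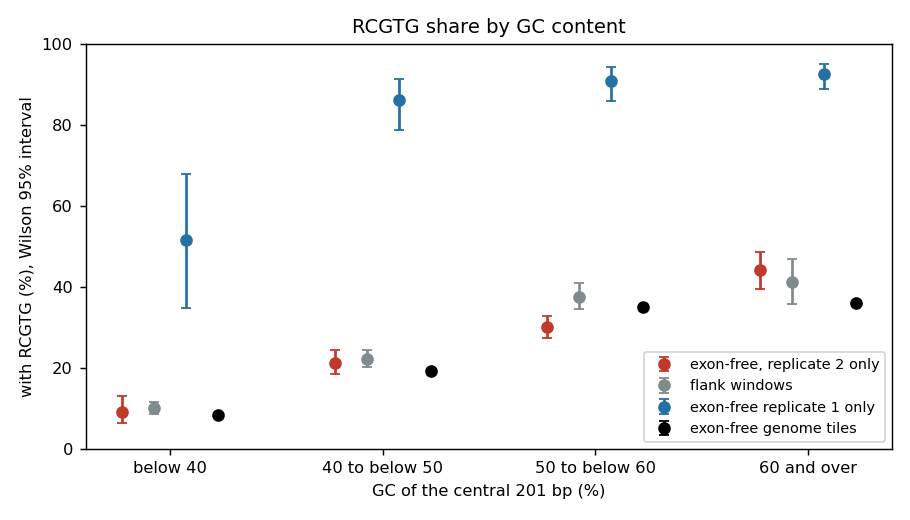
Share with RCGTG (%, Wilson 95% interval) by GC content of the central 201 bp, for exon-free peaks of replicate 2 only, their flanks, exon-free peaks of replicate 1 only and genome tiles outside exons. From 50 to 60% GC the replicate 2 peaks are at 30.0%, their flanks at 37.6% and the replicate 1 peaks at 90.8%.

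Of 12 other motifs, sought on both strands within 100 bp of the centre, 4 were more frequent in the exon-free peaks of replicate 2 only than in their flanks and 2 less frequent after Benjamini-Hochberg adjustment of Fisher's exact tests. The GC box GGGCGG was present in 7.84% against 3.97% (odds ratio 2.06, Fisher's exact test, adjusted p = 4.99e-10). GCGTG, the RCGTG core that begins with G, was present in 19.1% against 13.3% (Fisher's exact test, adjusted p = 1.26e-09), whereas ACGTG was present in 11.5% against 11.1% (Fisher's exact test, adjusted p = 0.658). In the exon-free peaks of replicate 1 only the order was the other way round, with ACGTG in 75.5% and GCGTG in 41.6%. The E-box CACGTG, which contains ACGTG, had 3.70% against 2.67% (Fisher's exact test, adjusted p = 0.0446), and the antioxidant response element TGACNNNGC 7.92% against 6.15% (Fisher's exact test, adjusted p = 0.0197). The lower ones were CCAAT, the NF-Y box, with 22.5% against 26.2% (Fisher's exact test, adjusted p = 0.00294), and TGANTCA, bound by AP-1, with 4.50% against 5.88% (Fisher's exact test, adjusted p = 0.0370). The cyclic AMP response element, the ETS motif CCGGAAG, the TEAD motif CATTCC, the RUNX motif TGTGGT and the CTCF core did not pass either. Against flanks centred 2 kb away, the GC box, the G form of the core and the NF-Y box still passed (Fisher's exact test, adjusted p = 1.19e-11, 7.42e-15 and 0.0309), whereas the E-box, the antioxidant response element and the AP-1 motif did not (Fisher's exact test, adjusted p = 0.343, 0.343 and 0.423). These calls were made against flanks of lower GC content. Within the same 4 GC ranges, chosen after the data were seen, the intervals of peaks and flanks overlapped for each of the 6 motifs that had passed, and the GC box had 6.93% against 6.25% between 50 and 60% GC and 24.4% against 18.3% from 60% upward. They did not overlap for ACGTG, which was lower in the peaks between 50 and 60% GC (11.4% against 16.6%) and higher from 60% (18.1% against 9.69%), or for the TEAD motif below 40% (16.3% against 9.47%).

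The regions were spread unevenly over the genome. The short arm of chromosome 5 and both arms of chromosome 20 held 667 of them, 26.5%, on 3.76% of the exon-free tiles. The same arms held 4.99% of the exon-touching peaks of replicate 2 only and 4.16% of the exon-free peaks of replicate 1 only. On 20q there were 8.42 exon-free peaks of replicate 2 only per Mb of exon-free sequence, on 5p 6.94 and on 20p 4.75, against a median of 0.646 over 41 arms and 0.361 on 5q. The short arm of chromosome 17 also ranked high, at 5.24 per Mb, but is counted below among the other arms. It held 97 of the regions, with between 6 and 13 in each whole 5-Mb bin inside it. On 20q and 5p the excess ran along the arm. Each whole 5-Mb bin inside 20q held between 17 and 55 regions, and each such bin of 5p between 8 and 112. The short arm of chromosome 5 and the arms of chromosome 20 were singled out after their values were seen and were not tested. The number of copies of each arm in these cells was not measured.

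**Figure D3:**
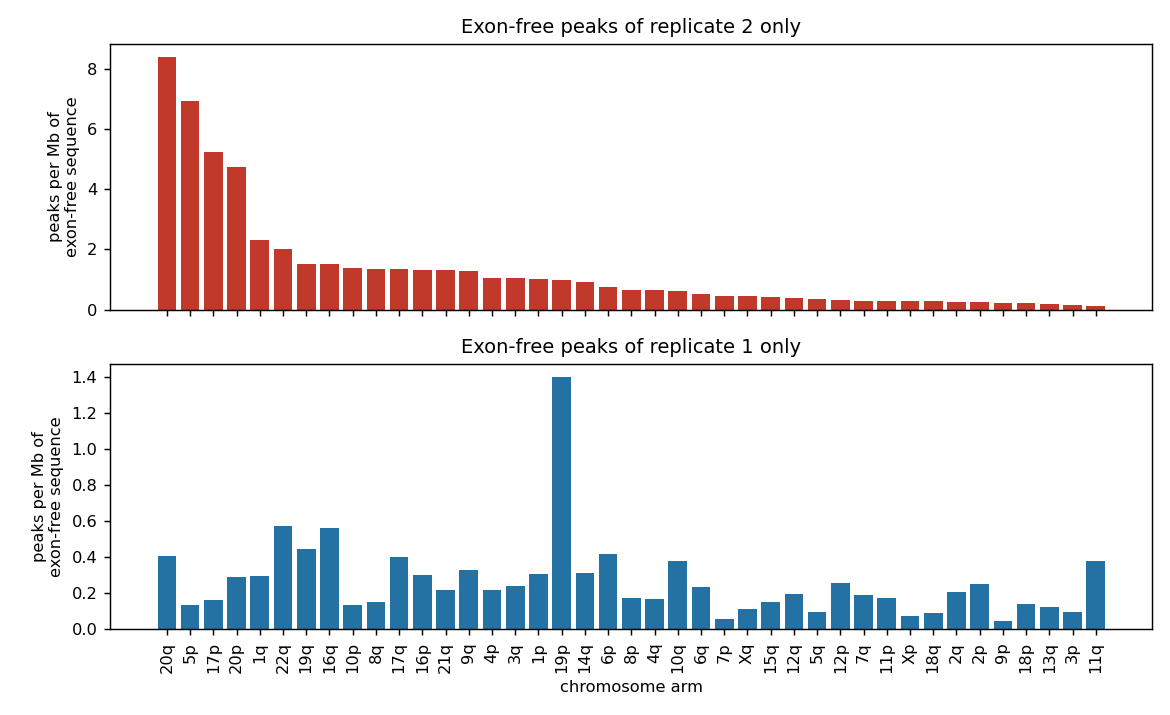
Peaks per Mb of exon-free sequence on each of 41 chromosome arms, for exon-free peaks of replicate 2 only (top) and of replicate 1 only (bottom), ordered by the former. Arm 20q stands at 8.42 in the top panel and at 0.406 in the bottom panel.

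The peaks on 5p and chromosome 20 resembled the others in their share of RCGTG, 27.1% against 27.6% elsewhere. They lay farther from exons and start sites, with 35.2% more than 20 kb from an exon against 26.3% elsewhere, and 6.15% against 11.6% within 1 kb of a start site. Over all arms, 28.6% of exon-free tiles lay more than 20 kb from an exon and 5.27% within 1 kb of a start site. Tiles were not counted this way on 5p and chromosome 20 alone, so the gene spacing of these arms was not set beside the difference. The shares inside a protein-coding gene were close, 31% of the peaks on 5p and chromosome 20 against 32.9% elsewhere. The sequence of the peaks on 5p and chromosome 20 was repeated in 15.7%, against 41.3% elsewhere.

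Repeated sequence was measured by counting the genome copies of each 31-base word of a region, and a region was called repeated when the median over its words was above 1. This measure was added after the data were seen. It held for 868 of 2513 exon-free peaks of replicate 2 only (34.5%, interval 32.7 to 36.4%) and for 29% of their flanks (odds ratio 1.29, Fisher's exact test, p = 2.45e-06). In exon-free peaks of replicate 1 only the share was 7.82% (odds ratio 6.22, Fisher's exact test, p = 1.44e-45), and in exon-touching peaks of replicate 2 only it was 8.50% (odds ratio 5.68, Fisher's exact test, p = 1.67e-226). The rule itself set the exon-touching class apart by exons, and how far this accounts for the gap was not tested. The exon-free replicate 2 peaks that overlapped replicate 1 had a higher share still, 50% (64 of 128, interval 41.5 to 58.5%). At least 20 copies were found for 6.84% of the exon-free peaks of replicate 2 only, for 8.59% of those that overlapped replicate 1 and for 1.5% of those of replicate 1 only. With 1 region kept per group of neighbours within 10 kb, 27.2% were repeated, against 22.8% of their flanks (odds ratio 1.27, Fisher's exact test, p = 0.000363). Of the repeated regions, 57.6% lay within 1 Mb of an assembly gap of at least 10 kb, against 23% of the unrepeated ones. In all, 878 regions (34.9%) lay that near a gap, beside 10.4% of exon-free tiles, 31.7% of the flanks, 19.6% of the exon-free peaks of replicate 1 only and 61.7% of the exon-free replicate 2 peaks that overlapped replicate 1.

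**Figure D4:**
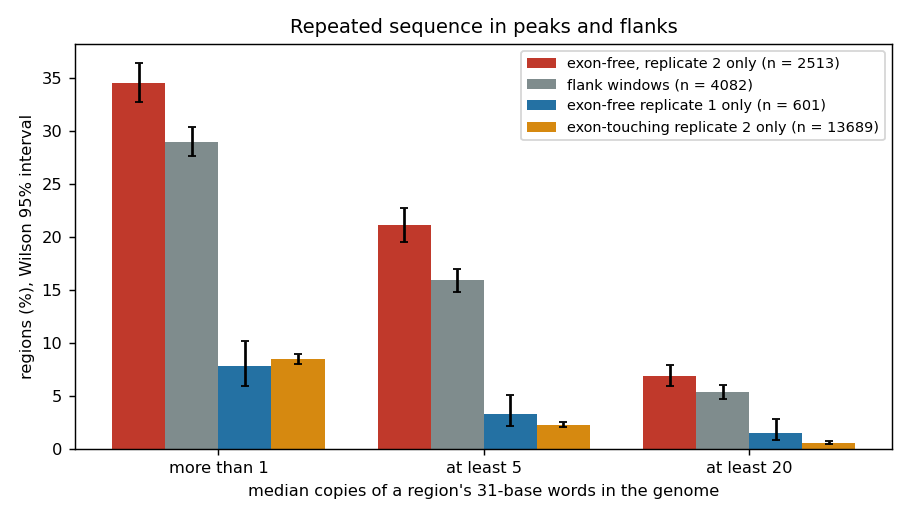
Share of regions (%, Wilson 95% interval) whose 31-base words have a median of more than 1, at least 5 or at least 20 copies in the genome. Exon-free peaks of replicate 2 only are at 34.5%, 21.1% and 6.84%, above their flanks at 29%, 15.9% and 5.32%.

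Many of the regions stood close together. In 265 groups, 895 of them (35.6%) had another within 10 kb, and 41 groups held 5 or more. The largest had 33 regions over 111 kb of chromosome 8, with a median of 11 copies, and the member of this group with the longest transcript match resembled REXO1L1 over 1145 bp at 99.8% identity. Next came 22 regions over 47.0 kb inside TTC34, where 20 were repeated and 12 held RCGTG, and 20 regions over 34.0 kb near the centromere of chromosome 5.

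Matches to protein-coding transcripts were more frequent in these regions than beside them. A stretch of at least 90% identity to such a transcript covered 50% or more of 308 regions (12.3%), against 9.38% of the flanks (odds ratio 1.35, Fisher's exact test, p = 0.000265). The longest matches, beside the REXO1L1 one, were to LRRK1 (1189 bp at 92.0%), TMEM185A (897 bp at 99.9%), TCAF1 (852 bp at 99.9%) and KPNA5 (819 bp at 92.5%). The regions matching LRRK1 and KPNA5 had a median of 38 and 45 genome copies. Those matching TMEM185A and TCAF1 had 2 each, and the REXO1L1 one had 12. How far repeated sequence accounts for the excess of matches was not tested.

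Start sites were nearer to the exon-free peaks of replicate 1 only than to those of replicate 2 only. Within 1 kb of one lay 10.1% of the latter, compared with 5.27% of exon-free tiles and with 31.6% of the former (odds ratio 0.244, Fisher's exact test, p = 1.99e-35). Within 500 bp of an exon lay 14.7%, against 8.67% of tiles, although the rule itself used exons. Just inside the rule, 15 regions lay at most 10 bp from an exon, the nearest directly adjoining one at DEFA1B, and just outside it 14 peaks of replicate 2 only had at most 10 exon bases. The region closest to a replicate 1 peak was 206 bp away, and the smallest overlap among the shared exon-free peaks was 194 bp.

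Inside protein-coding genes lay 814 of the regions (32.4%), compared with 43.0% of the tiles. Of their 543 host genes, 256 had a mean FPKM of at least 1. Counted by region, a mean FPKM of at least 1 was found for the hosts of 43.0% of these regions (interval 39.6 to 46.4%), below the 57.9% of exon-free tiles within protein-coding genes. At 10 FPKM or more the shares were alike, 24.6% and 24.8%, and at 100 FPKM or more they were 2.49% of the regions and 0.867% of the tiles with a value. The median host FPKM was 0.386. In exon-free peaks of replicate 1 only, 81.5% of the hosts reached 1 FPKM and the median was 9.59, and in exon-touching peaks of replicate 2 only the values were 88.8% and 14.3. No test was made, because regions share host genes.

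**Figure D5:**
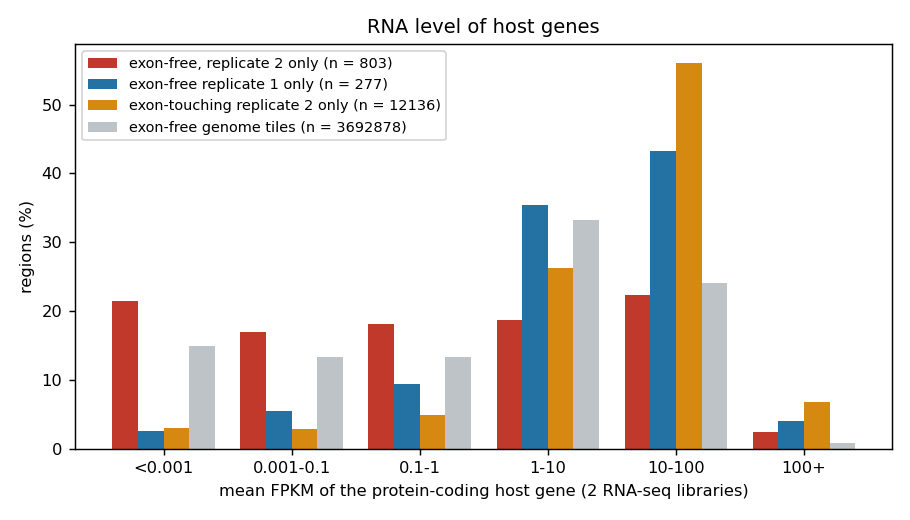
Share of regions (%) by mean FPKM of the protein-coding host gene over 2 RNA-seq libraries, for 3 classes of peaks and for exon-free genome tiles. Hosts below 0.001 FPKM account for 21.4% of the exon-free peaks of replicate 2 only, for 15% of the tiles and for 3.05% of the exon-touching peaks.

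The share of hosts at this level was also counted by distance from exons, with no test between distances. Within 500 bp of an exon, 59.3% of the intronic regions had a host of at least 1 FPKM, against 66.4% of tiles at that distance. Between 5 and 20 kb the shares were 21.5% and 54.8%, and beyond 20 kb 23.5% and 37.9%. On 5p and chromosome 20 the share was 22.2%, against 53.0% of tiles there, and elsewhere it was 50.1%, against 58.1%.

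At least 6 regions lay in each of 14 host genes, of which 5 reached a mean of 1 FPKM. These counts were not scaled to gene length, which ran from 36.5 kb for ANKRD10 to 1120 kb for PTPRT. CTNND2 was 933 kb long, CDH4 688 kb and SLC24A3 510 kb. No count expected from gene length, or from the density of the arm, was computed. TTC34 had 22 regions at 0.0184 and 0.0261 FPKM in replicates 1 and 2. On chromosome 20, CDH4, which encodes R-cadherin, had 14 regions at 0.275 and 0.463 FPKM. The receptor phosphatase gene PTPRT had 13 and the sodium-calcium exchanger gene SLC24A3 had 9, both listed at 0 FPKM in each library. On 5p, CTNND2, encoding delta-catenin, had 10 and the adenylate cyclase gene ADCY2 had 6, also listed at 0. FBXL7 on 5p had 6 regions at 1.16 and 1.28 FPKM, and PHACTR3 on chromosome 20 had 6 at 0.369 and 0.339 FPKM. Of these 14 hosts, only TTC34 and ZDHHC11B had regions in repeated sequence, 20 and 3 of them. ZDHHC11B had 8 regions at 0.095 and 0.159 FPKM. FLRT2 had 7 at 5.55 and 4.95 FPKM, and ANKRD10 had 6 at 25.9 and 26.7 FPKM. RBPMS had 6 at 33.1 and 30.3 FPKM, and ASTN1 had 6 at 0 and 0.0162 FPKM.

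PFKP, the platelet isoform of phosphofructokinase, had the highest RNA level of these 14 hosts, 244 and 247 FPKM. It had 6 regions, all unrepeated. They ran from chr10:3162820 to chr10:3170639, where the widest covered 2386 bp, and 3 of them held RCGTG. Of 51 HIF target genes listed, PFKP, EGLN3 and NDRG1 had a region within 50 kb of a start site. EGLN3 had 1, in an intron 4349 bp from a start site, at 5.80 and 4.97 FPKM. NDRG1 had 2, the nearer 19092 bp away, at 211 and 209 FPKM, and both lay inside another gene, CCN4. None of these 3 regions near EGLN3 and NDRG1 held RCGTG within 100 bp of its centre. Within 50 kb of a HIF target start site lay 0.358% of the exon-free peaks of replicate 2 only, beside 0.215% of exon-free tiles. The shares were 3.66% for exon-free peaks of replicate 1 only, 0.935% for exon-touching peaks of replicate 2 only and 8.59% (11 of 128) for exon-free replicate 2 peaks that overlapped replicate 1. Of the 13 genes of lipid metabolism or mitochondria, LPIN3, a phosphatidate phosphatase gene on 20q, had a region 235 bp from a start site. LPIN3 was at 15.3 and 12.4 FPKM. Its region had the smallest width, 227 bp, and no RCGTG within 100 bp of its centre. The others, among them PLIN2, HILPDA and ANGPTL4, had none within 50 kb.

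The widest regions were 2 neighbours in DNAJC15, of 3607 and 3025 bp, without RCGTG at their centres. DNAJC15 was listed at 0 FPKM in both libraries. Among the 10 regions with the most RCGTG were introns of PRDM16, MEGF6, PLA2G6 and TERT, and 2 regions with a median of 27 copies, nearest to FRG2B on 10q and to DUX4 on 4q.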

How the data were processed

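For ChIP-seq, the authors used Bowtie2 on hg19, retained reads with 1 mapping position and ran MACS2 on each replicate, and deposited positions only. The threshold and control are not given in the sources used here. For RNA-seq, the authors deposited FPKM and TPM per transcript from StringTie 1.3.3 on GENCODE 27, in GRCh38 coordinates. The paper names hg19 for the RNA-seq mapping instead. Values were summed per gene and joined to GENCODE 44 (GRCh37) by Ensembl identifier. Of 19 marker genes, 18 matched. Members and lists were chosen with earlier results of these data known.

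Flank windows had the width of the peak, were centred 1 kb to either side (farther for wider peaks) and touched no exon or peak. Tiles had 300 bp, without unknown bases. Transcript matches came from megablast (BLAST+ 2.17.0, e-value 1e-05). Shares were compared by two-sided Fisher's exact tests (SciPy 1.17.1), with Benjamini-Hochberg adjustment over 8 tests and, separately, over 12 motifs. Regions named were those with most RCGTG, the widest, those with the longest transcript match, those near HIF targets and those at the limits of the rule. Genes named were their hosts or neighbours, the hosts with most regions, the markers, the lipid genes and HIF1A, EPAS1 and ARNT. The code was tested on simulated data.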

Additional observations from a re-analysis of the deposited data

How the results depend on the processing

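Of 50 alternatives, 36 kept the direction and the side of the threshold, or stayed within the interval. RCGTG at the centres stayed above the flanks in 14 of 17 tried, including without ChIP-seq replicate 1 (28.3%) and, chosen after seeing the data, without 5p and chromosome 20 (27.6%) and in unrepeated sequence (24.6% against 21.9%, Fisher's exact p = 0.0412). In the 788 regions that were also off these chromosome arms and over 1 Mb from an assembly gap, it was 22.6% against 19% (Fisher's exact p = 0.0489). At like GC content, also chosen late, the order reversed below 40% (9.18% against 9.96%), at 40 to 50% (21.3% against 22.3%) and at 50 to 60% (30% against 37.6%), and from 60% it was weaker (44.1% against 41.2%). Against exon-touching replicate 2 peaks, the whole peak reversed the order (37.6% against 50.5%), and leaving out ChIP-seq replicate 1 brought 28.3% against 26.4% past the threshold (Fisher's exact p = 0.0465). The cause was not tested. With flanks at 2 kb, 3 of the 6 motifs other than RCGTG that had passed still did so. Keeping 1 region per group of neighbours, also chosen after seeing the data, changed none of the 8 calls. Hosts reached 0.1 FPKM for 60.8% of intronic regions (tiles 71.2%), 10 FPKM for 24.6% (tiles 24.8%) and 1 TPM for 51.4% (tiles 64.3%). Without 5p and chromosome 20, 50.1% reached 1 FPKM, and leaving out either RNA-seq replicate gave 42.9 to 43.2%. Near an exon, the share was 7.44% at 200 bp (tiles 3.88%) and 23.5% at 1 kb (tiles 15%). It was 5.69% with protein-coding exons only, over another set of 4638 peaks.

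No paired analysis was possible because both groups received the same treatment and no fit compared them. The shares of soft-masked bases were not run, since the genome used here does not mark repeats. Without scores or depth, stricter peak thresholds could not be tried. Leaving out ChIP-seq replicate 2 leaves no region.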
